A study of Drosophila melanogaster with 4 samples.

Results

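Uextra is a sequence of the Drosophila melanogaster genome assembly, FlyBase release 5, that collects small scaffolds which could not be placed on a chromosome. The peaks described here are all those of the deposited peak list whose sequence name is exactly Uextra, and they number 6998 of the 9485 peaks in the list. They begin at base 260414 and end at base 28979097 of Uextra, a span of 28.7 Mb, and together cover 3880 kb, or 13.5% of that span. No measured value entered the choice of these peaks.

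The series holds 4 libraries of embryos, of which 2 are chromatin immunoprecipitation (ChIP) libraries and 2 are input DNA libraries made without immunoprecipitation. All 4 share the strain Hr46-GFP, the genotype PBac{y[+]-attP-3B}VK00033, a transgene that carries the Hr46 genomic coding region, the stage label Embryo 0-8 and an unknown sex. The ChIP libraries used the mouse monoclonal antibody tgo mouse Crews, listed with tango as its target. Every sample title instead names TCF, and also carries the label nonISO1. The protocol names a y; bw cn sp stock, an egg laying of 8 to 16 hours and crosslinking in 1.8% formaldehyde for 15 minutes. The protein behind the peaks is therefore not named below, and nothing in the labels says whether replicates came from separate embryo collections.

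ChIP followed by sequencing maps where a protein sat on DNA in crosslinked chromatin, and a peak is an interval in which a peak caller found more reads than its model of the background. Scaffolds that stay unplaced in the fly assembly come largely from heterochromatin, the compact and gene-poor DNA around centromeres and on the Y chromosome, which is made of satellite repeats and copies of transposable elements. Reads from repeated DNA can map to many places, so a peak there need not mark a single locus. The score of a peak is the peak caller's value as the authors deposited it, on an unstated scale. The single list gives no value per library. Read depth is therefore unknown, no value below has an error between replicates, and no difference between ChIP and input or between sequence classes was tested.

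Most Uextra peaks had a middling score, and few were high. Scores ran from 6.54 to 761.58 with a median of 49.9 and an interquartile range of 26.2 to 64.1. In steps of 20 score units, 1350 peaks (19.3%) scored under 20, 1234 (17.6%) scored 20 to 40, 2129 (30.4%) scored 40 to 60, 1829 (26.1%) scored 60 to 80 and 378 (5.40%) scored 80 to 100. At 80 or more there were 456 peaks (6.52%), beside 6.65% over all peaks of the list. At 100 or more there were 78 peaks, or 1.11%, beside 1.76% over all peaks of the list, most of which lie on Uextra. Such scores were thus not more frequent here than in the list as a whole. At 150 or more there were 16 peaks (0.229%), beside 0.696% over the list, and at 200 or more there were 15 peaks (0.214%), beside 0.538%.

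The scores had more than a single concentration. In bins of 5 score units the count first reached 661 peaks between 10 and 15, dropped to 300 between 35 and 40, rose again to 642 between 55 and 60, and fell to 28 between 95 and 100. The low concentration was also present elsewhere. Scores under 20 made up 29.8% of the 523 peaks on U, the other collection of unplaced scaffolds, 86.1% of the 287 peaks on mapped heterochromatic scaffolds and 61.3% of the 1668 peaks on the chromosome arms. Scores of 40 to 60 made up 17.8% of the peaks on U, 1.39% on the heterochromatic scaffolds and 3.84% on the arms. In the same order, scores of 60 to 80 made up 25.4%, 0.348% and 2.40%, and scores of 100 or more made up 3.06%, 0.348% and 4.08%.

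**Figure D1:**
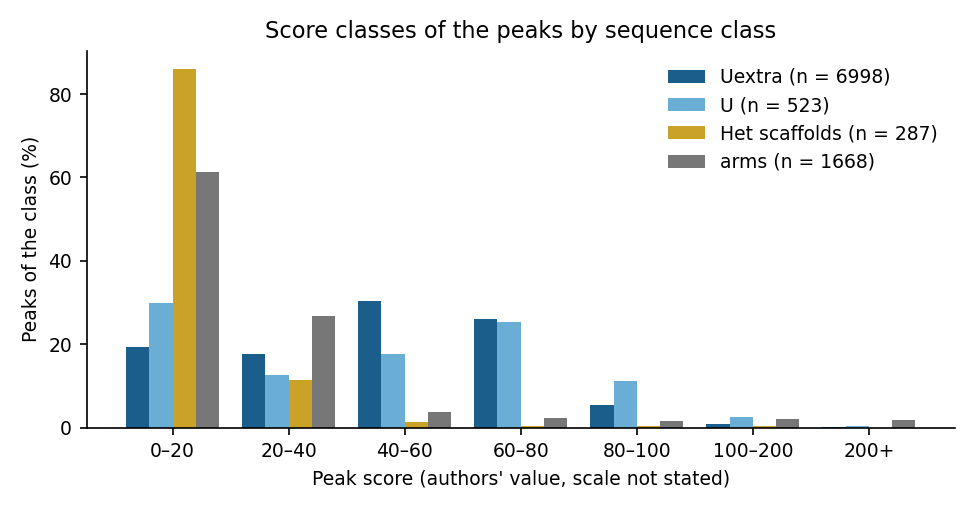
Share of peaks (percent of each sequence class, vertical axis) in 7 score classes (horizontal axis) for Uextra, U, the heterochromatic scaffolds and the arms; bars are single values without error. On Uextra the class of 40 to 60 is the tallest at 30.4%, whereas on the arms the class under 20 holds 61.3%.

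Many Uextra peaks carried exactly the same score. The 6998 peaks had 969 distinct scores, written to 2 decimals. Of these scores, 190 were shared by 10 or more peaks each, and 6000 peaks (85.7%) had such a shared score, whereas 654 scores occurred on a single peak. The most frequent score, 60.56, belonged to 77 peaks. Those 77 peaks lay between 1.81 and 28.1 Mb and were 469 to 1297 bp wide, with a median of 625 bp, so peaks with an identical score were spread over nearly the whole sequence and differed in width. The next most frequent, 59.56, belonged to 76 peaks that were 359 to 1578 bp wide. On U, 523 peaks had 272 distinct scores, but classes with more peaks repeat values more often by size alone.

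Scores varied along the sequence without a steady trend. Spearman's rho between midpoint and score across the 6998 peaks was -0.02, given as a description because peaks share libraries and scaffolds. Low scores were frequent in the first 2 Mb and again in the middle. The first 2 Mb held only 82 peaks, of which 50 (61.0%) scored under 20, and their median score was 17.3. From 2 Mb onwards the median score per 1 Mb lay between 38.5 and 60.6, with the highest value between 4 and 5 Mb and the lowest between 11 and 12 Mb. The share of peaks scoring under 20 was 9.24% to 13.0% in the 5 pieces from 3 to 8 Mb, 26% to 32.1% in the 5 pieces from 11 to 16 Mb, and 10.9% to 14.4% in the 4 pieces from 24 to 28 Mb. Median scores in the same stretches were 55.6 to 60.6, 38.5 to 44.1 and 47.9 to 51.3. These stretches were picked after the values were seen. The number of peaks per 1 Mb rose from 108 between 2 and 3 Mb to 368 between 25 and 26 Mb, and was 160 in the final piece.

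Peak width was 565 bp in the median, with an interquartile range of 413 to 655 bp and extremes of 201 and 2742 bp. The narrowest value recurred, since 60 peaks were exactly 201 bp wide. They scored 11.9 in the median and at most 47.63, and they occurred from 0.938 to 28.4 Mb. Of all 9485 peaks, 108 had this width and none was narrower.

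The width of the ordinary peaks drifted downwards along Uextra. Width and position had a Spearman's rho of -0.66 among the 4336 peaks scoring 40 to 100 and of -0.06 among the 2584 peaks scoring under 40. Per 1 Mb, the median width of peaks scoring 40 or more was 897 bp in the piece that starts at 2 Mb, 833 bp in that at 4 Mb, 666 bp in that at 10 Mb, 601 bp in that at 20 Mb and 404 bp in that at 28 Mb. The 5th percentile of all widths lay between 205 and 278 bp in all 29 pieces of 1 Mb, which is near the narrowest width in the list (201 bp), so it could hardly have moved lower. The upper edge followed the ordinary peaks, with the 95th percentile at 916 bp between 4 and 5 Mb and 493 bp in the final piece.

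Score rose with width mainly among the peaks narrower than the ordinary width. Median width was 288 bp for scores under 20, 467 bp for 20 to 40, 606 bp for 40 to 60, 643 bp for 60 to 80 and 650 bp for 80 to 100. Within single pieces of 1 Mb, rho between score and width ran from 0.48 to 0.81, so the relation was present in all 29 pieces. Each width was then divided by the median width of peaks scoring 40 or more in the same 1 Mb, here called the local width. In the first piece only 3 such peaks set it, and in the second 16. The resulting relative width was 0.453 in the median for scores under 20, 0.787 for 20 to 40, 0.984 for 40 to 60, 1.01 for 60 to 80 and 1.03 for 80 to 100. Since peaks scoring 40 or more set the local width, their medians near 1 follow from the definition.

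**Figure D2:**
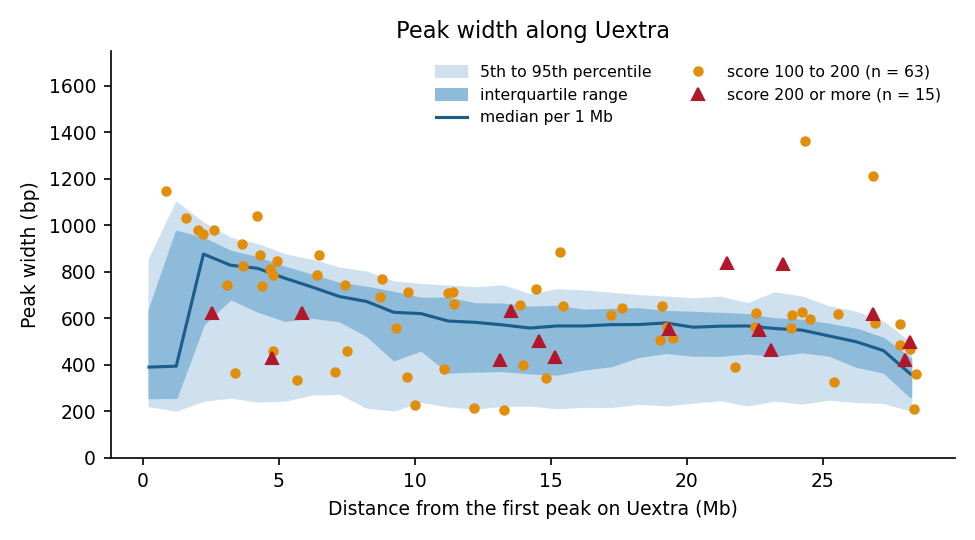
Peak width in bp (vertical axis) against distance from the first Uextra peak in Mb (horizontal axis). The line is the median per 1 Mb, the bands are the interquartile range and the 5th to 95th percentile over peaks, and symbols are the 63 peaks scoring 100 to 200 and the 15 scoring 200 or more. From the third piece on, the median falls from 876 to 359.5 bp, and the lower band edge lies between 206 and 278 bp, near the narrowest width of 201 bp.

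Uextra peaks lay at regular distances from each other along the sequence as assembled. The borders between its scaffolds are not in the peak list. Distances, gaps, groups and wide peaks, here and below, may therefore run across scaffolds that need not adjoin on a chromosome. Nor could the unit described below be compared with scaffold lengths. The distances between the starts of 2 peaks, taken for all pairs up to 6 kb apart, piled up near multiples of a unit somewhat longer than a peak. Between 20 and 26 Mb, where 1978 peaks gave 3742 such pairs, 191 pairs were 700 to 800 bp apart, 8 were 1100 to 1200 bp apart and 170 were 1400 to 1500 bp apart. The count then fell to 3 pairs at 1800 to 1900 bp and returned to 167 at 2200 to 2300 bp. Between 10 and 16 Mb the first crests stood further apart, with 81 pairs at 800 to 900 bp, 5 at 1200 to 1300 bp and 118 at 1600 to 1700 bp. Between 2 and 8 Mb they were wider still, with 31 pairs at 1000 to 1100 bp, 5 at 1300 to 1400 bp and 41 at 2000 to 2100 bp. Beyond 3800 bp the crests of this segment were no longer clear, with 14 to 23 pairs per 100 bp up to 5100 bp.

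**Figure D3:**
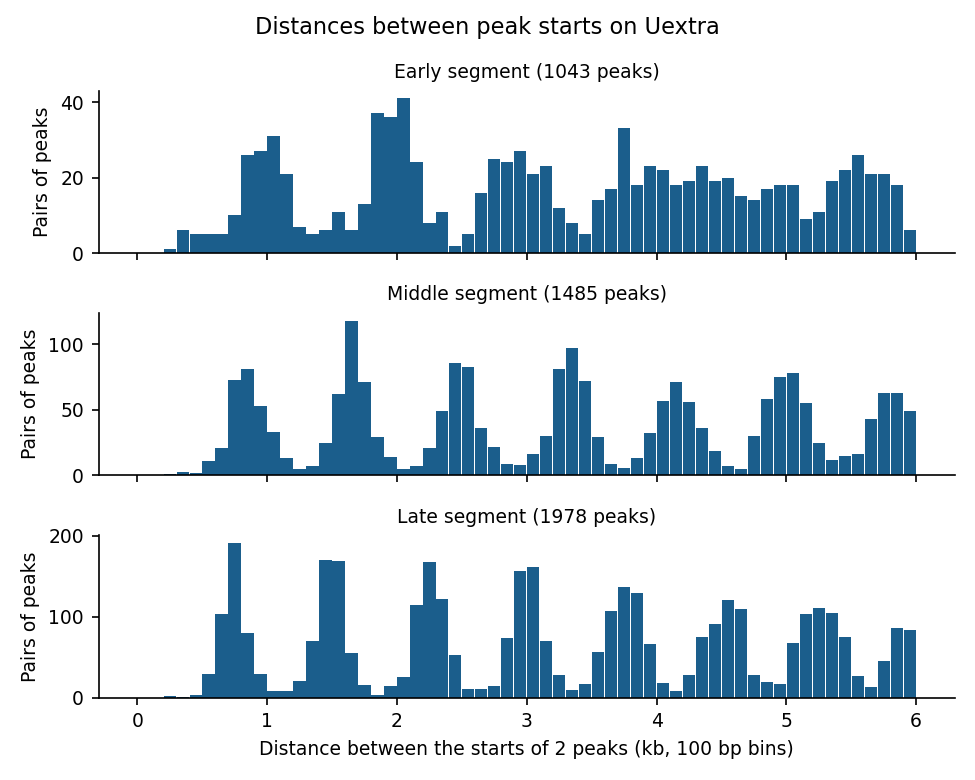
Number of pairs of peaks (vertical axes, each with its own scale) by the distance between their starts in kb, in bins of 100 bp (horizontal axis), for an early segment (2 to 8 Mb, 1043 peaks), a middle segment (10 to 16 Mb, 1485 peaks) and a late segment (20 to 26 Mb, 1978 peaks). Crests recur at even steps in the middle and late segments, whereas in the early segment they are no longer clear beyond 3800 bp. The first crest moves from 1000 to 1100 bp in the early segment to 700 to 800 bp in the late segment.

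To measure the unit, each piece of 1 Mb was cut into windows of 100 kb. The unit was the length from 500 to 1300 bp that best matched the distances in alternate windows, and the share of distances near a multiple of it was counted in the other windows. Near means within 0.25 of a unit, which would take 50% of distances without regular spacing. Over the 22 pieces with at least 100 pairs for the fit, 4208 of 4805 distances (87.6%) lay near a multiple, and the share per piece ran from 77.5% to 95.4%. With peaks scoring 40 or more alone the share over all distances was 98.0%. That value covers only the pieces in which these peaks alone gave at least 100 pairs for the fit, so the pieces may differ too.

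Other sequences were measured with a single unit fitted to each. On U, 83 of 164 distances (50.6%) lay near a multiple, as did 123 of 245 on 2L (50.2%), 50 of 87 on 2R (57.5%), 72 of 145 on 3L (49.7%), 62 of 132 on 3R (47.0%), 110 of 233 on X (47.2%) and 15 of 29 on the heterochromatic scaffold 2RHet (51.7%). Those sequences have too few peaks for a unit per 1 Mb, so the value to set beside theirs is that of Uextra with a single unit, 3141 of 5166 distances (60.8%). It was above the highest of them, on 2R, by little, and the difference was not tested.

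The unit shortened along Uextra in step with peak width. It was 1017 bp in the piece that starts at 4 Mb, 857 bp in that at 10 Mb, 779 bp in that at 20 Mb and 675 bp in that at 27 Mb. The local width over the same pieces was 833, 666, 601 and 492 bp. The unit exceeded the local width by a nearly constant length, which was 178 bp in the median and ran from 164 to 193 bp over the 22 pieces, although the unit itself changed from 1017 to 675 bp. Across the 22 pieces rho between unit and local width was 0.99, a description in which both values come from the same peaks. There were 18.9 to 26.7 peaks for every 100 units of length, with a median of 22.6, so most units held no peak start.

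**Figure D4:**
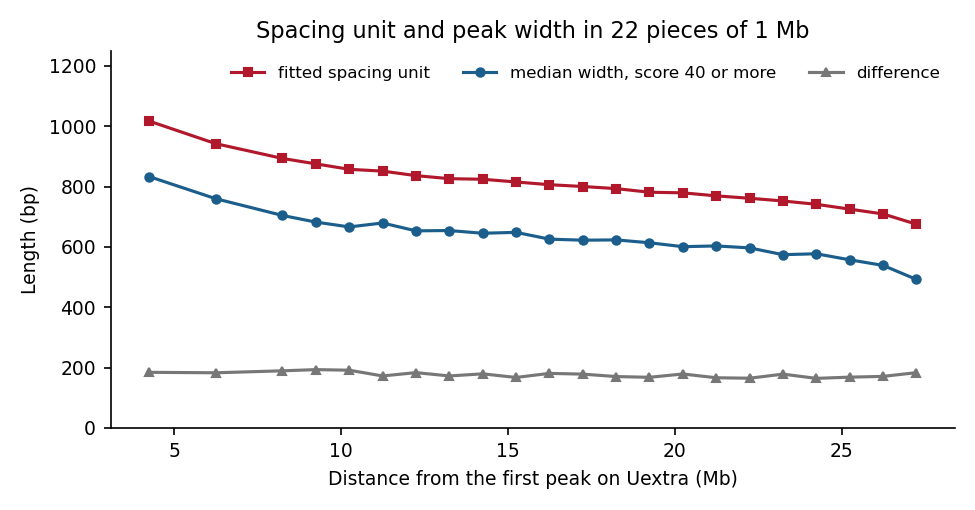
Fitted spacing unit, median width of peaks scoring 40 or more, and their difference (bp, vertical axis) in the 22 pieces of 1 Mb that gave a unit, by distance from the first Uextra peak in Mb (horizontal axis). Points are single values per piece. Unit and width fall together, from 1017 and 833 bp to 675 and 492 bp, and the difference stays between 164 and 193 bp.

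Steps between neighbouring peaks spanned differing numbers of units, and they were not compared with filling of the units at random. Of 6121 steps from the start of a peak to the start of the next in these pieces, rounded to whole units, 1285 (21.0%) were 1 unit, 1127 (18.4%) were 2 units, 866 (14.1%) were 3 units and 798 (13.0%) were 9 units or more. In base pairs, the gap between neighbours had a median of 2102 bp and ran from 50 to 119465 bp, with the longest between 423319 and 542785. Gaps were frequent between 200 and 250 bp (250 gaps) and between 950 and 1000 bp (170 gaps) and rare between 700 and 750 bp (5 gaps).

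Close neighbours had similar scores and widths to solitary peaks. When peaks at most 500 bp apart were grouped, 4577 peaks (65.4%) stood alone, 871 groups held 2 peaks each, 203 held 3 or more and 16 held 5 or more. Median score was 49.9 for solitary peaks, 49.9 in groups of 2, 50.4 in groups of 3 or 4 and 50.9 in larger groups. Median width was 566, 566, 558.5 and 560 bp in the same order. The group with the most peaks ran from 19533677 to 19539754 and held 8 peaks in 6078 bp, with scores of 37.13 to 100.06. The next ran from 23048359 to 23054193 and held 7 peaks scoring 18.98 to 83.89.

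A small set of peaks was wider by whole units. Relative width had its main mode near 1, with 4470 peaks (63.9%) between 0.8 and 1.2, and only 75 peaks lay between 1.2 and 1.8. A second mode followed, with 132 peaks (1.89%) between 1.8 and 2.8 and a median of 2.25. For the 125 of these with a fitted unit, width exceeded the local width by 0.980 units in the median (interquartile range 0.935 to 1.04). Another 6 peaks had relative widths between 2.8 and 4.5 and exceeded the local width by 1.93 units in the median. The widest peak, from 25889586 to 25892327 with a width of 2742 bp and a score of 77.27, exceeded it by 3.01 units. The next widest ran from 9272514 to 9275005 (2492 bp, score 74.03) and from 13627689 to 13629933 (2245 bp, score 86.71).

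Scores under 40 were absent among these wide peaks. The 132 peaks of the second mode scored 43.13 to 131.38 with a median of 65.4, against 58.1 for the 4470 peaks of ordinary width, and 0 of them scored under 40, as 605 of the 4470 did. At the other end, the 969 peaks with a relative width under 0.5 had a median score of 13.3, and 924 of them scored under 40. The lowest scores of all belonged to narrow peaks, at 14421443 to 14421709 (267 bp, score 6.54), 11915738 to 11915976 (239 bp, score 6.61) and 15283558 to 15283838 (281 bp, score 6.82).

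**Figure D5:**
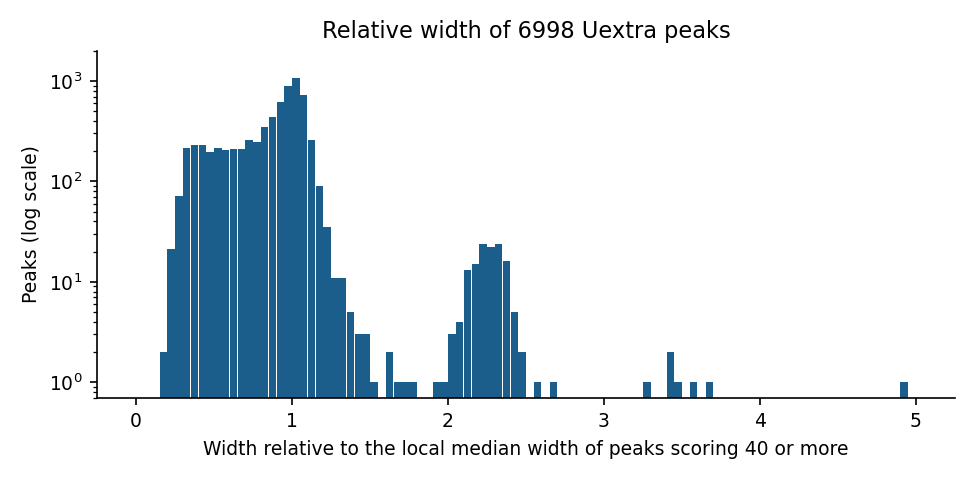
Number of Uextra peaks (vertical axis, log scale) by width relative to the median width of peaks scoring 40 or more in the same 1 Mb (horizontal axis, bins of 0.05). The main mode lies near 1, a second mode of 132 peaks between 1.8 and 2.8 is separated from it, and 7 peaks lie beyond.

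The 78 peaks scoring 100 or more fell into a dense lower part and a sparse upper part. Scores of 100 to 200 were held by 63 peaks with a median of 106.86, and only 1 peak scored between 150 and 200, at 7353307 to 7353677 (371 bp, score 195.86). The limit itself cut through a continuous range. Just above it stood peaks scoring 100.12, at 22765342 to 22765905, and 100.06, at both 9078141 to 9078909 and 19535315 to 19535877. Just below it stood peaks scoring 99.47, at 3852990 to 3853836, and 98.88, at both 5882207 to 5882976 and 26802832 to 26803396. Of the 29 pieces of 1 Mb, the final one held the most peaks of 100 or more, with 7.

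The 10 highest scores were spread from 2.83 to 28.5 Mb. In descending order they were 761.58 at 6118252 to 6118873 (622 bp), 749.73 at 13798607 to 13799238 (632 bp), 713.42 at 23790137 to 23790968 (832 bp), 709.18 at 2831273 to 2831893 (621 bp) and 701.77 at 27103588 to 27104205 (618 bp). The following were 672.35 at 21748085 to 21748923 (839 bp), 625.95 at 22939294 to 22939844 (551 bp), 517.64 at 19622101 to 19622654 (554 bp), 420.82 at 14829713 to 14830213 (501 bp) and 398.85 at 28493032 to 28493527 (496 bp). The peaks directly before and after the highest scored 68.2 and 64.59. What lies at these positions in the annotation is not given, because sequence and annotation of this release were not used here.

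The 15 peaks scoring 200 or more, a small set, mostly differed in width from the local width. They were 419 to 839 bp wide with a median of 551 bp, and width and position had a rho of -0.07 among them, beside -0.66 for scores of 40 to 100 and -0.45 for the 63 peaks of 100 to 200. The peak at 2831273 was 621 bp wide where the local width was 897 bp, and the peak at 27103588 was 618 bp wide where the local width was 492 bp. Only 4 of the 15 (26.7%) had a relative width between 0.9 and 1.1, against 29 of 63 (46.0%) at scores of 100 to 200 and 3010 of 4336 (69.4%) at 40 to 100. The peaks of 40 to 100 largely set the local width, so their share is not an independent yardstick. Among the 15, width instead followed score, with a rho of 0.91. The 33 arm peaks scoring 200 or more were 461 to 842 bp wide with a median of 620 bp, and rho between score and width was -0.14 among them. These comparisons were made after the values were seen and have no test.

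Distances from these high peaks fell on the spacing of the others less often than those of lower-scoring peaks, by counts without a test. The unit was here fitted to the midpoints of peaks scoring 40 to 100, in the 26 pieces of 1 Mb with at least 40 pairs, and distances to those peaks within 6 kb were counted for each score class. Near a multiple of the unit lay 2249 of 2398 distances (93.8%) for peaks scoring under 20 and 2115 of 2281 (92.7%) for 20 to 40. For 40 to 100, the class used for the fit, 7428 of 8168 (90.9%) did, with each pair of peaks counted from both ends. The share was 89 of 111 (80.2%) for the 45 peaks of 100 to 200 with such a neighbour, and 16 of 35 (45.7%) for the 14 peaks of 200 or more. The share for peaks scoring under 20 does not measure how they are centred, since a narrow peak anywhere within the extent of an ordinary one would mostly count as near. The share at 200 or more rests on 35 distances that share peaks, and single peaks differed. All 4 distances of the peak at 13798607 lay near a multiple, as did 2 of 3 for that at 27103588, whereas 0 of 3 did for those at 5002338 and 13398652. The peak at 2831273 had no distance to count. The share at 200 or more was 9 of 18 in the 18 pieces with at least 100 pairs.

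High peaks had close neighbours about as often as others. Another peak lay within 500 bp of 6 of the 15, of 20 of the 63 peaks scoring 100 to 200 (31.7%), of 1507 of the 4336 scoring 40 to 100 (34.8%) and of 888 of the 2584 scoring under 40 (34.4%).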

How the data were processed

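The series was measured by ChIP-seq in 2 ChIP and 2 input libraries and is represented by 1 peak list. The list names MACS as its source and places coordinates on FlyBase release 5, per the file headers. Per the submitters' processing notes, which assign no roles, the tools were CASAVA (versions 1.7.0.2 and 1.7.0.3), BWA and MACS2, and the build was BDGP5. The score of each peak was deposited by the authors without a unit. The peak threshold, the treatment of reads with several mapping positions, the use of the input and any pooling of replicates are all not given in the sources used here; read depth is unknown.

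Coordinates are 1-based, width counts both end bases, and positions along the sequence refer to midpoints. The spacing unit maximised the mean cosine of the phase over whole-number lengths, and the script was tested on simulated data. Peaks named by position are the 10 highest scores, the 3 widest, the 3 lowest and the 3 on each side of a score of 100; any other was picked with its values in view. The peaks and measures were chosen with earlier results of these data known; relative width, spacing and phase were added after seeing the list. Peaks are not replicates, so no test was made, and alternatives replaced score limits, ranges and distances. Computation used Python 3.11.15 and scipy 1.17.1, with numpy 2.4.6 and pandas 2.3.3; plots used matplotlib 3.10.9.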

Additional observations from a re-analysis of the deposited data

How the results depend on the processing

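No paired analysis was possible because the replicate numbers of ChIP and input libraries carry no values of their own in the single list, and no replicate could be left out. Of 21 alternatives, 6 stayed within a set range of the main value, 15 moved and 0 reversed. Only the correlations of width with position and with score could reverse. The other values cannot be negative, and the correlation of position and score was too small to be labelled so. The range was the nominal 95% interval of the value over peaks, or over gaps for the median gap. For the share near a multiple it was taken over distances that share peaks, as if these were independent. For the count at 100 or more and the covered share it was a fixed margin instead. The cause was not tested beyond the smaller or merged sets of peaks that the alternatives use. The share of the list on Uextra, 73.8%, was 77.8% with peaks at most 500 bp apart merged, 89.7% among the 4742 highest scores and 66.3% of covered bases. The 78 peaks at 100 or more became 456 at 80 or more and 16 at 150 or more. The Spearman rank correlation of position and width, -0.36 over all peaks, was -0.65 at scores of 40 or more and -0.24 after merging. The Spearman rank correlation of score and width, 0.67, was 0.20 at scores of 40 or more. The median gap of 2102 bp was 3421 bp at scores of 40 or more, and midpoints lay 2699.5 bp apart. The covered share of 13.5% was 10.2% at scores of 40 or more and 14.2% without the first 2 Mb. The share of distances near a multiple, 87.6%, was 92.5% for midpoints, 98.0% at scores of 40 or more, 89.9% for distances up to 3 kb and 88.5% with the windows exchanged. These alternatives were all chosen after the data were seen, and each used the pieces with at least 100 pairs for its own fit. Without depth or replicate values, no limit of detection can be given.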
